A study of Danio rerio with 6 samples.

Results

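The genes examined here make, assemble, modify and move the small nuclear ribonucleoproteins (snRNPs) of the spliceosome. They were chosen as a list of 37 symbols covering the Integrator subunits, the SMN complex, Sm protein methylation, cap hypermethylation, snRNA export, snRNP import and the Cajal body. Of these symbols, 33 were paired with 1 gene identifier among the 26375 in the count tables, and all 33 genes passed the filter on low counts. The symbols wdr77, ncbp1, ncbp2 and xpo1b were not paired with an identifier and are only named.

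The libraries came from zebrafish of the AB strain at 3 dpf, with 3 libraries of siblings, labelled mettl16+/+ and untreated, and 3 libraries of mettl16-/- embryos of a stable CRISPR/Cas9 line. Mettl16 is an RNA methyltransferase that places N6-methyladenosine (m6A), and U6 snRNA is among its known substrates. Total RNA was taken from dissected tails, in the labels the trunk region, that included the caudal hematopoietic tissue (CHT), with many tails pooled for each library, so each library averages over embryos and over every cell type of the tail. Neither the labels nor the methods say whether the libraries of a group came from separate clutches. The p-values thus set the genotype difference against the spread between these libraries, estimated with the help of all genes. That spread need not be the spread between clutches.

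In animal cells, RNA polymerase II transcribes most spliceosomal snRNAs. Integrator cuts the nascent transcript near its 3′ end, and the cap-binding complex, Phax and the exportin Xpo1 carry the RNA to the cytoplasm. There the SMN complex places the ring of Sm proteins, which Prmt5 and its partners have methylated, on the snRNA. Tgs1 then trimethylates the cap, snurportin and importin beta bring the particle back to the nucleus, and the RNA is trimmed and modified in Cajal bodies. The roles given below are known mainly from human cells and other animals.

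Total counts per library ran from 16239791 to 18541402, and levels are given as counts scaled by library size with TMM factors (CPM). The targeted gene, mettl16 (ENSDARG00000055838), was measured at 6.13, 6.17 and 7.01 CPM in siblings and at 4.0, 3.28 and 5.15 CPM in mettl16-/- embryos. All fold changes below are log2 values of mettl16-/- over sibling, with the p-values and intervals of the edgeR fit on genotype alone. That of mettl16 was -0.63 with a standard error of 0.211 and an adjusted p of 1.0, and its groups did not overlap (p = 0.10 in an exact two-sided permutation test, which cannot go lower with these group sizes). The muscle, epidermis, endothelium and blood markers matched for the tissue were detected in every library. Markers of liver, which is not named in the tissue labels, summed to between 4550 and 5440 CPM in siblings and between 4490 and 4960 CPM in mettl16-/- embryos. The liver sum mostly followed apoa2 and tfa, which averaged 3100 and 1480 CPM in siblings. All 5 liver markers had fold changes below 0, and 0 were called in the main fit, beside 0.124% of all genes tested. With the replicate number as a block 3 were called lower, beside 73 of the 18487 genes tested. These were fabp10a (adjusted p = 0.0337), tfa (0.0217) and fgb (0.0151). In the fit with the block 1 muscle marker, actc1b, and 1 erythroid marker, alas2, were called higher (adjusted p = 0.0423 and 0.0177). Of all genes tested, 0.649% were called higher in that fit. Of lens and retina markers 2 of 5 were matched, and mettl16-/- replicate 1 stood apart in them, with a sum of 50.6 CPM beside at most 1.92 CPM in any other library. The matched pancreas markers, 3 of 5 on the list, summed to between 21.5 and 72.5 CPM in siblings and between 10.8 and 17.8 CPM in mettl16-/- embryos. Only prss1 of these was tested, with a log2 fold change of -1.44 (unadjusted p = 0.0378 from edgeR). All its mettl16-/- libraries lay below all its sibling libraries, which was the case for 3.43% of all genes. The part of these markers in the results below was not tested. Leaving out each library in turn bears only on a single library that stands apart, and not on a difference shared by a whole group.

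No member of the list was called between mettl16-/- embryos and siblings, 0 of 33 genes at an adjusted p-value below 0.05. Over all 18487 genes tested, 0.124% were called (edgeR with Benjamini-Hochberg adjustment over all genes). An unadjusted p-value below 0.05 was found for toe1 and snupn, 2 of the 33 genes, against 2.17% of all genes. Both were higher in mettl16-/- embryos, as were 1.17% of all genes by that rule. DESeq2, the tool of the study's methods, also gave 0 genes by adjusted p-value and 2 by unadjusted p-value. The shares of all genes in DESeq2 were not computed, so these counts have no background beside them. The study's own cut-off also set a minimum fold change. Neither toe1 nor snupn reached it, at log2 fold changes of 0.54 and 0.41 in DESeq2. With the replicate number as a block, again 0 genes passed the adjusted threshold, against 1.04% of all genes. By unadjusted p-value 3 fell below 0.05 in that fit, namely snupn, toe1 and ints6, against 9.2% of all genes.

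Large changes lay outside the intervals of most of the list. The 95% interval of the fold change lay within 1.5-fold in both directions for 28 of the 33 genes and for 54.5% of all genes tested. It lay within 2-fold for all 33, and for 14683 of the 18487 genes tested. The genes with intervals not within 1.5-fold were ints4, ints6, gemin6, snupn and toe1. Standard errors were smaller in the list, with a median of 0.153 beside 0.187 over all genes, which by itself narrows the intervals. The median log2 fold change of the 33 genes was -0.076, beside -0.0032 over all genes tested. There were 22 genes with a fold change below 0 and 11 above 0, or 66.7% lower, beside 50.9% of all genes. This balance differed by pair of libraries with the same replicate number. In the pair of replicate 1, 16 genes were lower and 17 higher, in that of replicate 2 there were 24 and 9, and in that of replicate 3 there were 21 and 12.

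**Figure D1:**
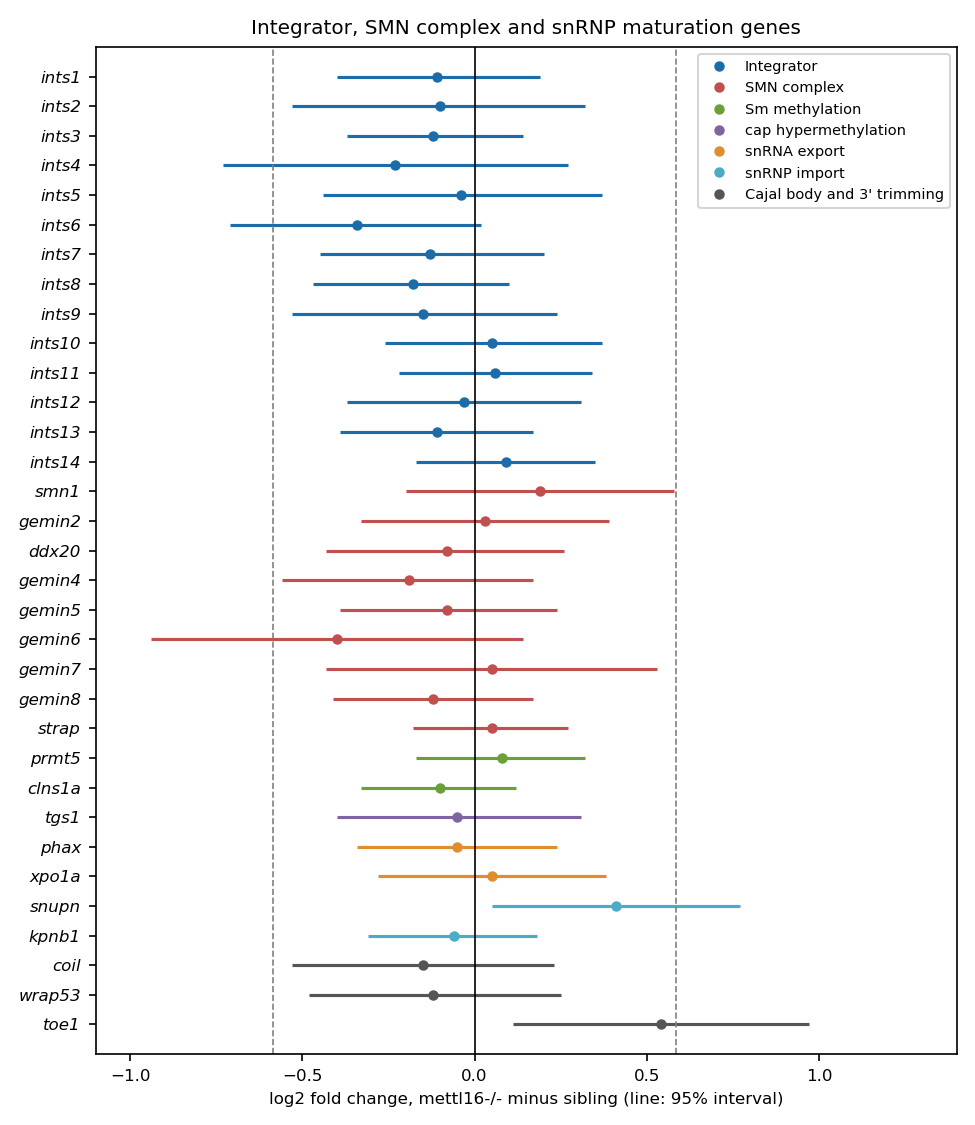
Log2 fold change of each of the 33 genes, mettl16-/- minus sibling, with its 95% interval from edgeR as a line and the groups of genes in colour. Dashed lines mark 1.5-fold in either direction, and only the intervals of snupn and toe1 do not cross 0.

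All 14 Integrator subunits on the list were tested. None was called by the adjusted p-value, beside 0.124% of all genes tested, so the absence of a call does not show that a subunit was unchanged. Their unadjusted p-values ran from 0.0608 to 0.846 in edgeR. Their log2 fold changes lay between -0.34 and 0.09, with 11 subunits below 0 and 3 above, and a median of -0.11. This median was -0.027 without sibling replicate 1, -0.067 without mettl16-/- replicate 3 and -0.18 without mettl16-/- replicate 1. No upper bound of a 95% interval among the subunits was above 0.37 on the log2 scale, and no lower bound was below -0.73.

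The endonuclease that makes the cut is Ints11. It had 18.5, 15.9 and 20.3 CPM in siblings and 19.6, 18.1 and 19.3 CPM in mettl16-/- embryos, so the mettl16-/- libraries lay inside the range of the siblings. The log2 fold change of ints11 was 0.06 with a 95% interval from -0.22 to 0.34, and it was -0.029 without sibling replicate 2. Ints9, the inactive partner of the endonuclease, and Ints4, which holds both, complete the cleavage module. For ints9 there were 13.6, 12.6 and 8.98 CPM in siblings and 9.89, 10.6 and 11.3 CPM in mettl16-/- embryos. For ints4 there were 11.7, 7.40 and 7.07 CPM in siblings and 8.70, 7.18 and 6.47 CPM in mettl16-/- embryos. In both genes sibling replicate 1 was the highest library and the groups overlapped. The log2 fold change of ints4 was -0.23 (95% interval -0.73 to 0.27), and it was 0.041 without sibling replicate 1.

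Among the other subunits, ints6 had the largest fitted difference and was the only Integrator gene whose groups did not overlap. Ints6 is one of the subunits that link Integrator to the phosphatase PP2A. It had 12.0, 9.31 and 10.4 CPM in siblings and 8.70, 7.35 and 8.92 CPM in mettl16-/- embryos. The highest mettl16-/- library lay 0.384 CPM below the lowest sibling library, a gap that was small beside the range of 2.72 CPM within the siblings. For ints6 the fold change was -0.34 on the log2 scale, with a 95% interval from -0.71 to 0.02, a standard error of 0.163, and an unadjusted p of 0.0608 (adjusted p = 1.0). With the replicate block its unadjusted p-value was 0.0140 and its adjusted p-value 0.351. Ints8, which also contacts PP2A, had a log2 fold change of -0.18 (95% interval -0.47 to 0.10).

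The scaffold subunits ints1, ints2 and ints7 had log2 fold changes of -0.11, -0.10 and -0.13. For ints1 there were 39.3, 36.6 and 30.4 CPM in siblings and 36.8, 33.4 and 28.4 CPM in mettl16-/- embryos. Here the replicate numbers fell in the same order in both groups, with replicate 1 the highest and replicate 3 the lowest. For ints3, which is also part of a DNA repair complex with single-stranded DNA binding proteins, the log2 fold change was -0.12 (95% interval -0.37 to 0.14). Ints10, Ints13 and Ints14 form a separate module, and their genes had log2 fold changes of 0.05, -0.11 and 0.09, while those of ints5 and ints12 were -0.04 and -0.03. Ints15, a later addition to that module and not on the list of 37, had 6.60, 7.71 and 8.15 CPM in siblings and 8.26, 8.80 and 9.52 CPM in mettl16-/- embryos. Its mettl16-/- libraries were all higher than its sibling libraries, with a log2 fold change of 0.24 (95% interval -0.11 to 0.60, unadjusted p = 0.158 from edgeR).

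**Figure D2:**
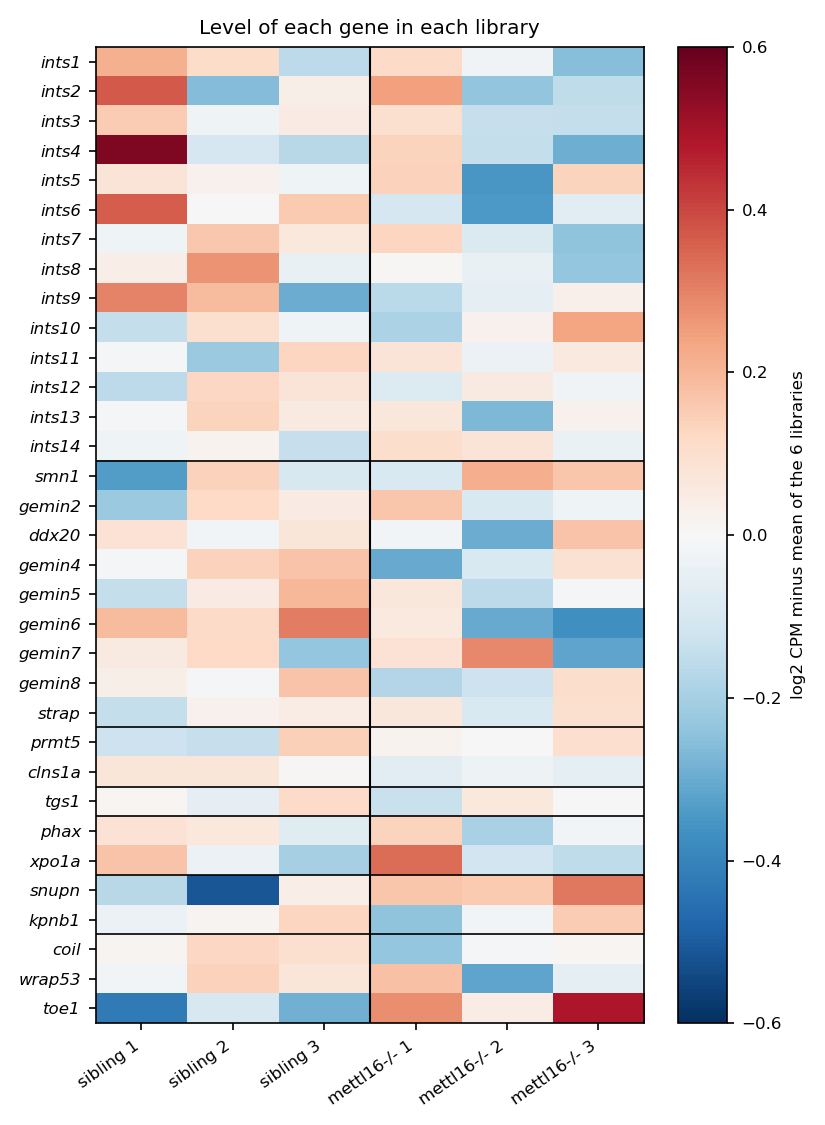
Level of each of the 33 genes in each of the 6 libraries, as log2 CPM minus the mean of that gene over the libraries, with siblings to the left of the vertical line. Rows are arranged by gene group, from Integrator to the Cajal body, and not by the order of the steps. The colour divides most clearly at the line in toe1 and snupn, while ints1, ints2 and ints4 are highest in replicate 1 of the siblings.

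All 9 listed genes of the SMN complex were tested, and none was called, beside 0.124% of all genes tested. Unadjusted p-values ran from 0.131 to 0.861 in edgeR, 4 genes were higher and 5 lower, and the median log2 fold change was -0.076. Smn1, the subunit after which the complex is named and the product of the gene mutated in human spinal muscular atrophy, binds the Sm proteins. The smn1 gene had 6.60, 9.15 and 7.79 CPM in siblings and 7.82, 9.69 and 9.34 CPM in mettl16-/- embryos. Each mettl16-/- library of smn1 was above the sibling library of the same number, but the groups overlapped, and the log2 fold change was 0.19 (standard error 0.176, 95% interval -0.20 to 0.58). Gemin2, which wraps around the Sm proteins before they meet the snRNA, had a log2 fold change of 0.03 (95% interval -0.33 to 0.39).

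The lowest fold change in the list was that of gemin6. Gemin6 and Gemin7 pair through folds like those of Sm proteins, and Gemin8 joins this pair to Smn1. For gemin6 there were 3.36, 3.19 and 3.65 CPM in siblings and 3.07, 2.39 and 2.28 CPM in mettl16-/- embryos. All mettl16-/- libraries lay below all sibling libraries, and replicate 1 of mettl16-/- lay closest to the siblings. For gemin6 the fold change was -0.40 on the log2 scale, with a 95% interval from -0.94 to 0.14, a standard error of 0.242, and an unadjusted p of 0.131 (adjusted p = 1.0). Gemin6 was also the gene with the fewest counts, between 38 and 62 in a library, where counting error alone is 13.9% of a value. Its partners gemin7 and gemin8 had log2 fold changes of 0.05 and -0.12, and both overlapped between the groups.

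The RNA helicase Ddx20, also known as Gemin3, and its partner Gemin4 had genes with log2 fold changes of -0.08 and -0.19. The groups of gemin4 overlapped, with 7.96, 8.84 and 9.04 CPM in siblings and 6.51, 7.52 and 8.56 CPM in mettl16-/- embryos. Gemin5, which recognizes the snRNA, had a log2 fold change of -0.08 (95% interval -0.39 to 0.24). The WD repeat protein Strap, or Unrip, had the narrowest interval of the complex. The strap gene had 48.7, 54.8 and 55.6 CPM in siblings and 56.4, 50.6 and 57.5 CPM in mettl16-/- embryos, with a log2 fold change of 0.05 (95% interval -0.18 to 0.27).

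In Sm protein methylation, the methyltransferase gene prmt5 had 32.7, 32.4 and 39.4 CPM in siblings and 36.2, 35.7 and 38.3 CPM in mettl16-/- embryos. Its log2 fold change was 0.08 (95% interval -0.17 to 0.32), and all mettl16-/- libraries of prmt5 lay within the range of the siblings. The chaperone pICln, encoded by clns1a, holds Sm proteins until the SMN complex takes them. The clns1a gene had 25.8, 25.8 and 24.6 CPM in siblings and 23.4, 24.0 and 23.5 CPM in mettl16-/- embryos. These groups did not overlap, but the difference was small, with a log2 fold change of -0.10 (95% interval -0.33 to 0.12, unadjusted p = 0.333 from edgeR). The cap hypermethylase gene tgs1 had 7.25, 6.94 and 7.79 CPM in siblings and 6.57, 7.52 and 7.19 CPM in mettl16-/- embryos, with overlapping groups and a log2 fold change of -0.05 (95% interval -0.40 to 0.31).

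Genes of transport between nucleus and cytoplasm divided into those of export and those of import. Phax is the adaptor that ties the capped snRNA to the exportin. The phax gene had 17.4, 17.1 and 15.6 CPM in siblings and 18.0, 14.3 and 16.2 CPM in mettl16-/- embryos, with a log2 fold change of -0.05 (95% interval -0.34 to 0.24). The exportin gene xpo1a had 82.3, 71.4 and 63.8 CPM in siblings and 92.2, 67.5 and 65.9 CPM in mettl16-/- embryos. Replicate 1 was the highest in both groups of xpo1a, and the log2 fold change was 0.05 (95% interval -0.28 to 0.38). An identifier listed as XPO1 (ENSDARG00000063229), not counted here, had a log2 fold change of 0.15 (95% interval -0.18 to 0.48). Whether reads were shared between these similar genes is not given in the sources used here.

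On the import side, snupn was the other gene of the list, besides toe1, with an unadjusted p-value below 0.05. It encodes snurportin, which binds the trimethylated cap and hands the particle to importin beta. There were 11.1, 8.74 and 12.8 CPM of snupn (ENSDARG00000008395) in siblings and 14.0, 13.9 and 15.5 CPM in mettl16-/- embryos. The groups were separate, and the closest values were 12.8 and 13.9 CPM. Siblings averaged 10.9 ± 2.02 CPM (SD, n = 3) and mettl16-/- embryos 14.5 ± 0.909 CPM (SD, n = 3). The fold change of snupn was 1.33 (95% interval 1.04 to 1.71), or 0.41 on the log2 scale with a standard error of 0.161, at an unadjusted p of 0.0281 and an adjusted p of 1.0 in edgeR. With the replicate block the unadjusted p-value of snupn was 0.00127 and the adjusted p-value 0.0885, both the lowest of the 33 genes in that fit. Sibling replicate 2 was the lowest library, and without it the log2 fold change was 0.28 with an unadjusted p-value of 0.10. The importin gene kpnb1, with 240, 249 and 269 CPM in siblings and 208, 243 and 273 CPM in mettl16-/- embryos, had a log2 fold change of -0.06 (95% interval -0.31 to 0.18).

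In the Cajal body group, toe1 had the highest fold change and the smallest unadjusted p-value of the 33 genes. Toe1 is a 3′ exonuclease that trims the ends of snRNAs. The toe1 gene (ENSDARG00000077544) was counted 73, 105 and 79 times in the sibling libraries, or 4.30, 5.40 and 4.73 CPM. In the mettl16-/- libraries it was counted 112, 107 and 135 times, or 7.01, 5.96 and 8.08 CPM. The groups did not overlap, and mettl16-/- replicate 2 lay closest to the siblings. Siblings averaged 4.81 ± 0.552 CPM (SD, n = 3) and mettl16-/- embryos 7.02 ± 1.06 CPM (SD, n = 3). The fold change of toe1 was 1.45 (95% interval 1.08 to 1.96), or 0.54 on the log2 scale with a standard error of 0.192. The unadjusted p-value was 0.0180 in edgeR, which 168 of the 18487 genes reached, and 0.00394 with the replicate block. The adjusted p-value was 1.0 in edgeR and 0.178 with the replicate block. Without mettl16-/- replicate 3 the log2 fold changes of toe1 and snupn were 0.43 and 0.36 and their unadjusted p-values 0.0803 and 0.0887. Without sibling replicate 1 that of toe1 was 0.0576, and without mettl16-/- replicate 2 that of snupn was 0.0523.

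Coilin, the scaffold of the Cajal body, and Wrap53, which brings small Cajal body RNAs to it, were not called either. The coil gene had 6.01, 6.48 and 6.35 CPM in siblings and 5.07, 5.90 and 5.99 CPM in mettl16-/- embryos. The groups of coil did not overlap, by 0.0234 CPM, and with no filter on low counts they did. Its log2 fold change was -0.15 (95% interval -0.53 to 0.23, unadjusted p = 0.394 from edgeR). The wrap53 gene had a log2 fold change of -0.12 (95% interval -0.48 to 0.25) and overlapped between the groups.

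**Figure D3:**
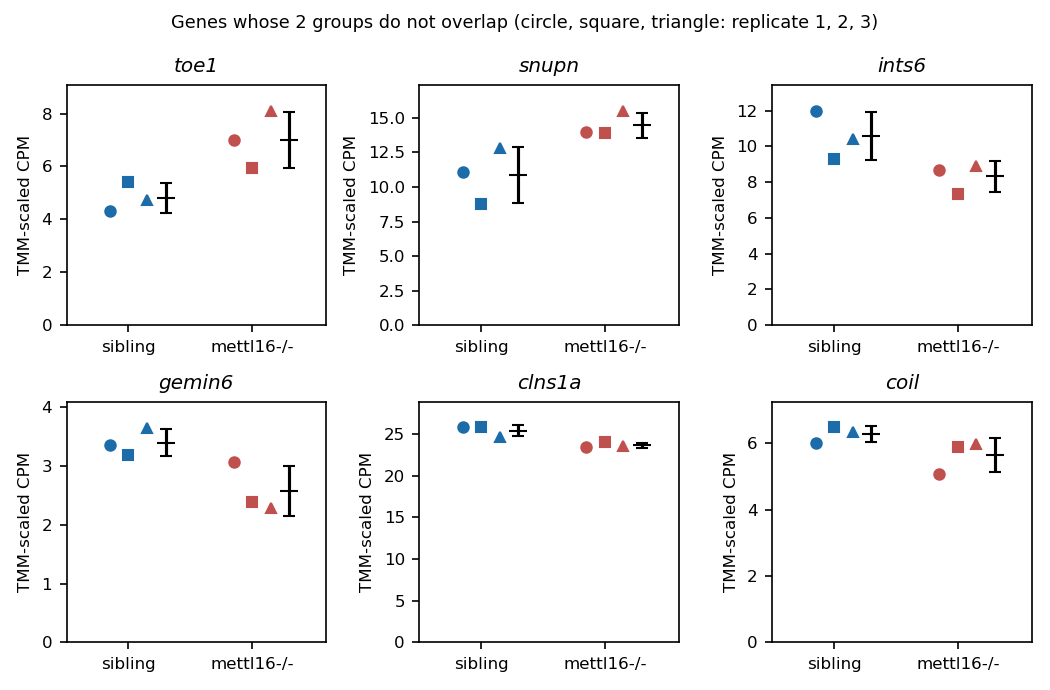
Level of the 6 genes of the list whose groups did not overlap, as TMM-scaled CPM in each library, with circle, square and triangle for replicates 1, 2 and 3 and a bar for the mean and SD of 3 libraries. Only toe1 and snupn are higher in mettl16-/- embryos. In CPM, the gap between the groups is narrowest in coil (0.0234), gemin6 (0.122) and ints6 (0.384).

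In total, the groups did not overlap in 6 of the 33 genes, 2 with the mettl16-/- libraries above and 4 below. The same was true of 6.89% of all genes tested, with 3.46% above and 3.43% below. The count for the list was 10 without mettl16-/- replicate 1, against 16.8% of all genes, and 10 without mettl16-/- replicate 3, against 15.3%. Over the pairs of libraries with the same number, the mettl16-/- library had the lower value in all 3 pairs for 10 genes and the higher value for 4, beside 14.9% and 15% of all genes. The 10 genes were ints1, ints3, ints4, ints6, ints8, gemin4, gemin6, gemin8, clns1a and coil, and the 4 genes were ints14, smn1, snupn and toe1.

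The levels of some genes differed more between replicate numbers than between genotypes. The widest ranges of the mean log2 level over the numbers were those of ints4, 0.58, and ints2, 0.56, where the genotype differences were -0.20 and -0.10. The median range over the 33 genes was 0.21, beside 0.34 over all genes tested, and the median absolute genotype difference was 0.10 in both. The range exceeded the genotype difference in 27 of the 33 genes, which is near the 87.1% of all genes and is not a result about this list. The range and the genotype difference are unlike measures, and the range tends to be the larger even without a replicate effect.

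Other genes of snRNP biogenesis, set out in a further list of 31 symbols, also held no called gene. Of these, 25 were matched and 24 were tested, with 12 higher and 12 lower. In edgeR 0 were called and 0 fell below 0.05 by unadjusted p-value, beside 0.124% and 2.17% of all genes. With the replicate block 0 were called and 2 of the 24 fell below 0.05 unadjusted, a share near the 9.2% of all genes in that fit. One was nolc1, a nucleolar and Cajal body phosphoprotein, with a log2 fold change of 0.22 in both fits and an adjusted p-value of 0.150 with the block. The other was fbl, the 2′-O-methyltransferase of small nucleolar RNPs, with a log2 fold change of 0.13 and an adjusted p-value of 0.449 with the block. The genes srrt and ncbp3, whose products work with the cap-binding complex, had log2 fold changes of -0.06 and -0.03, and ran, the GTPase that drives export and import, had 0.07. The 3′ exonuclease genes parn and exosc10 had 0.01 and 0.12, and dis3 had -0.20 (unadjusted p = 0.124 from edgeR). Of the 24 genes tested, the groups did not overlap in 1 above, ints15, and 1 below, dis3, beside 3.46% and 3.43% of all genes.

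The snRNA gene activators and the Sm ring genes, which are not on this list, had called genes in the same libraries. Among the activators of snRNA genes, snapc4, brf2, ice1 and uspl1 were called higher in mettl16-/- embryos, 4 of the 10 tested, against 0.114% of all genes. Among the Sm ring genes, snrpd2 and snrpe were called higher, 2 of 6. With the replicate block these counts were 4 of 10 and 5 of 6, against 0.649% of all genes. The genes of these lists that were not called had log2 fold changes from -0.39 to 0.01 in the 6 other activators and from 0.27 to 0.95 in the 4 other Sm ring genes. Both lists were chosen with these results known, and no test of the difference between the lists was made.

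**Figure D4:**
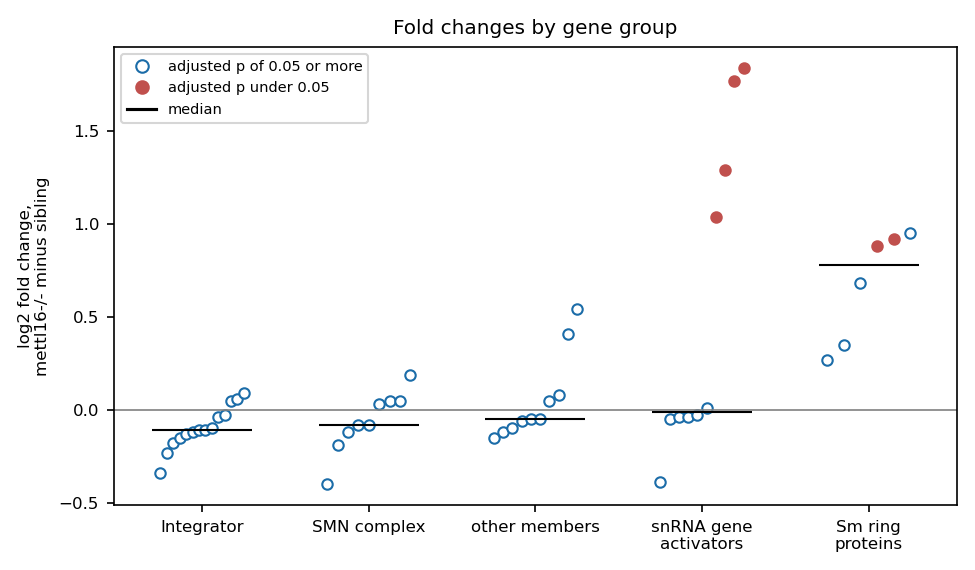
Log2 fold change of each tested gene, mettl16-/- minus sibling, for Integrator, the SMN complex, the other members of the list, the snRNA gene activators and the Sm ring genes, with a line at the median of each. Filled points have an adjusted p-value below 0.05, and there are 4 among the activators, 2 in the Sm ring and none in the other groups.

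In these bulk libraries a change in the share of a cell type and a change in RNA per cell cannot be told apart. Levels of replication and blood progenitor genes are given as measures of dividing and blood cells. The 6 matched replication genes (mcm2, mcm3, mcm4, mcm5, mcm7 and pcna) summed to between 669 and 749 CPM in siblings and between 687 and 708 CPM in mettl16-/- embryos, with 0 called. The 5 matched hematopoietic stem and progenitor cell (HSPC) markers summed to between 38.3 and 43.4 CPM in siblings and between 36.5 and 38.9 CPM in mettl16-/- embryos, with 4 tested and 0 called. In siblings myb, tal1 and lmo2 averaged 16.9, 11.8 and 10.7 CPM, while gata2b and the untested runx1 averaged 0.776 and 0.754 CPM. The sum thus mostly follows myb, tal1 and lmo2. The log2 fold changes of tal1, lmo2 and gata2b were -0.01, -0.01 and -0.19. Of the 4 tested, only myb had all mettl16-/- libraries below all sibling libraries, which was the case for 3.43% of all genes. Its log2 fold change was -0.29 (unadjusted p = 0.0483, adjusted p = 1.0 from edgeR).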

How the data were processed

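The authors filtered reads with fastp (0.18.0), removed rRNA reads with Bowtie2, aligned the rest to Ensembl GRCz11 using HISAT2, and deposited whole-number counts per gene, not normalized. The counting tool, its use of strand and its handling of multi-mapped reads are not given in the sources used here. Symbols came from a table of gene names and were matched without regard to case. The fit used edgeR 4.0.16 under R 4.3.3 (TMM, filterByExpr, robust glmQLFit, glmQLFTest) and Benjamini-Hochberg adjustment over 18487 genes, and 95% intervals used the t distribution of the fit. DESeq2 1.42.0 was an alternative. The script was tested on simulated counts drawn independently for each library, with no replicate effect. That test bears on the code and not on how the fit behaves with paired libraries. The members and lists were chosen with earlier results of these data known. Values per library are given for genes with an unadjusted p-value under 0.05, without overlap, with the smallest p-value of a group or of defining function, and for further genes chosen after their values were seen.

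The labels number the libraries 1 to 3 in both groups. Deviations from the group means correlated at 0.586, 0.312 and 0.518 for the same number and at -0.446 to -0.0362 for different numbers. Because each group was centred on its own mean, negative values for different numbers follow in part from positive ones for the same number. The numbers were taken to pair the libraries on the values for the same number. The block was an alternative, since the study's methods name none. The main fit thus leaves this pairing out, and its standard errors, intervals and p-values include the spread between replicate numbers. It called 23 of the 18487 genes tested, beside 193 with the block (edgeR, adjusted p below 0.05). Taken over all genes, libraries of a group differed by more than counting error, but this did not hold for every gene of the list. For clns1a the SD was 2.66% of the mean in siblings and 1.45% in mettl16-/- embryos, beside a counting error of 4.85%. For coil it was 3.84% and 8.99%, beside 9.83%. The separation of the groups in clns1a and coil thus rests on spreads below counting error in both groups. In gemin6 the SD was below counting error in siblings only, at 6.93% beside 13.9%. In snupn it was so in mettl16-/- embryos only, at 6.29% beside 6.78%.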

Additional observations from a re-analysis of the deposited data

How the results depend on the processing

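No gene of the list was called in any of the 19 alternatives, and the lowest adjusted p-value was 0.0877, that of snupn with the replicate block and DESeq2's size factors. No other gene of the pathway was called in any of them. The replicate block, in which the median log2 fold change of the list was -0.076, changed no call of the list. That median stayed below 0 throughout, at -0.13 with library totals alone, where the median of all genes was -0.058 and 26 genes were lower, and between -0.093 and -0.016 with 1 library left out. The log2 fold change of mettl16 lay between -0.82 and -0.49 with 1 library left out, and its adjusted p-value with the replicate block was 0.0683. With 1 library left out, between 0 and 2 genes were below 0.05 by unadjusted p-value, and the share of all genes was not computed. Between 7 and 10 genes then had no overlap between the groups, beside 13.8% to 17.5% of all genes. With the replicate block and replicate 1, 2 or 3 left out, 15, 10 and 13 genes had no overlap, beside 28.5%, 22.5% and 25.1% of all genes. Fewer libraries make an overlap less likely.

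Of 627 values of single genes, 590 kept their direction and 37, in 18 genes, did not. Several alternatives refit the same 6 libraries with nearly the same fold changes, so much of that agreement was close to fixed in advance. With library totals alone the direction was the other one in ints10 (-0.0040), gemin2 (-0.028), strap (-0.0089) and xpo1a (-0.0012). All other reversals came with libraries left out. With 1 library left out, log2 fold changes ran from -0.26 to 0.077 for ints2, -0.36 to 0.041 for ints4, -0.12 to 0.11 for ints5, -0.058 to 0.15 for ints10, -0.029 to 0.15 for ints11, -0.11 to 0.024 for ints12, -0.066 to 0.10 for gemin2, -0.20 to 0.031 for ddx20 and -0.16 to 0.011 for gemin5. They ran from -0.089 to 0.20 for gemin7, -0.0094 to 0.10 for strap, -0.091 to 0.0071 for tgs1, -0.13 to 0.031 for phax, -0.12 to 0.15 for xpo1a, -0.16 to 0.033 for kpnb1 and -0.25 to 0.0016 for wrap53. With the replicate block, the direction was the other one without replicate 1 in ints9 (0.025), gemin2 (-0.15), strap (-0.034), tgs1 (0.00086) and xpo1a (-0.019). It was so without replicate 2 in ints5 (0.11), ints13 (0.028), gemin7 (-0.020), phax (0.047) and wrap53 (0.033), and without replicate 3 in ints10 (-0.061) and ints12 (6.6e-05). The cause was not tested. In the other 15 genes, among them toe1, snupn, ints6 and gemin6, the direction held in all alternatives. Counts of 38 to 62 a library limit gemin6 most.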
